A study of Mus musculus with 12 samples.

Results

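Messenger RNA was measured in mouse hippocampal astrocytes, and the 7 genes described here carry potassium buffering and its supporting sodium pump: Kcnj10, Kcnj16, Kcnk1, Kcnk2, Atp1b1, Atp1b2 and Slc12a2. They were chosen by name, from 56791 gene names in the table, and all 7 are listed in it. Astrocytes were sorted by fluorescence from adult naive male mice with an antibody to ACSA-2. The SMART-Seq V4 low-input kit served for the cDNA and for the libraries, which were read as pairs of 125 bases. The group labelled cKO is GfapcreERT2:Tnfrsf1b fl/fl, in which a Cre recombinase driven by the Gfap promoter is meant to remove Tnfrsf1b, the gene of the TNF receptor TNFR2. The group labelled Ctrl is Tnfrsf1b fl/fl and carries the same floxed gene without the Cre. Such a Cre reaches only cells in which the Gfap promoter is active, and no dosing of an inducer is given in the sources used here.

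Neurons release potassium when they fire, and astrocytes take it up. Inward rectifier channels let potassium enter and leave along its gradient, and two-pore-domain channels add a background potassium conductance that keeps the membrane potential negative. The sodium pump moves sodium out and potassium in at the cost of ATP, and consists of a catalytic alpha subunit and a beta subunit that brings it to the membrane. The cotransporter NKCC1, encoded by Slc12a2, brings sodium, potassium and chloride into the cell together. Hippocampal astrocytes are known for a large resting potassium conductance that rests on the Kcnj10 channel.

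There were 12 libraries from 6 A numbers, which the labels do not define: A1, A2 and A8 are labelled Ctrl and A4, A9 and A10 cKO, each with an S1 and an S2 library. The S1 and S2 libraries were averaged, so n is 3 A numbers a group, and nothing in the labels says whether an A number is 1 animal. P-values therefore weigh a group difference against the spread between these A numbers only, which limma pools in part over genes. Depth recovered from the values was 17311872 to 31499016 reads in the Ctrl libraries and 17451195 to 35323322 in the cKO libraries. The targeted gene did not check the labels: Tnfrsf1b was at 0 reads in 9 of 12 libraries, at 4 reads in Ctrl A1 S1, and at 10 and 22 reads in the 2 libraries of A4, which is labelled cKO. Directions below therefore refer to libraries as labelled.

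The sorted cells carried astrocyte markers at high levels, with a mean of 1687 FPKM for the glutamate transporter Slc1a2 and 990 FPKM for the glutamine synthetase gene Glul. FPKM counts reads per kilobase of gene, scaled to the depth of the library. The mean log2(FPKM + 1) of 12 astrocyte markers was 7.80 ± 0.12 (SD, n = 3) in Ctrl and 7.98 ± 0.05 in cKO, with no overlap (exact permutation p = 0.1, the smallest that 3 against 3 allows). Markers of oligodendrocytes were present too and were lower in cKO: the summed FPKM of 10 such genes ran from 982 to 2098 in Ctrl and from 283 to 674 in cKO. All 10 were lower in cKO, and 9 of them did not overlap between the groups. Of all tested genes, 7.26% had every cKO value below every Ctrl value. None of the 10 had a limma adjusted p under 0.05 (smallest 0.320). Their score, the mean log2(FPKM + 1), was 6.21 in Ctrl and 4.48 in cKO (exact permutation p = 0.1). Microglial markers were low, with summed FPKM of 14.2 to 19.1 in Ctrl and 20.7 to 36.5 in cKO; Cx3cr1, Tmem119 and C1qa were at 0 in 6, 8 and 6 of the 12 libraries. Summed FPKM did not overlap for oligodendrocyte precursor markers (94.2 to 135 in Ctrl, 53.8 to 77.2 in cKO) or neuronal markers (8.23 to 10.8 and 3.99 to 8.10), whereas their mean log2(FPKM + 1) overlapped (2.54 and 1.94, and 0.89 and 0.57; exact permutation p = 0.2 for each). The precursor sum came mostly from Olig1 (mean 69.5 FPKM) and Sox10, and its separation rested on them. The other precursor markers had means of only 0.385 to 1.98 FPKM, and each overlapped between the groups. Both measures overlapped for endothelial (4.82 to 48.4 and 5.05 to 35.8 summed FPKM), mural (66.5 to 111 and 92.5 to 141) and ependymal markers (63.2 to 259 and 55.3 to 164). Choroid plexus markers summed to 4.37 to 73.6 in 5 A numbers and to 460 in cKO A10, where the transthyretin gene Ttr stood at 433 FPKM.

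None of the 7 members passed the test of cKO against Ctrl, and for 6 of them the values of the groups overlapped. Atp1b2, Kcnj10, Kcnj16, Kcnk1, Kcnk2 and Atp1b1 had log2 fold changes between -0.06 and 0.17 for cKO over Ctrl. Their 95% intervals lay between -0.52 and 0.63. Slc12a2 stood apart at -1.13, with all 3 cKO A numbers below all 3 Ctrl A numbers, and it did not pass the threshold of 0.05 (limma adjusted p = 0.451). Over all 17540 genes tested, with a mean of at least 1 FPKM, 0% had an adjusted p under 0.05 by limma, 7.69% had an unadjusted p under 0.05 (1349 genes; 2.98% higher and 4.71% lower in cKO), and the smallest adjusted p was 0.136. The groups of A numbers did not overlap for 13.0% of all tested genes, with cKO above Ctrl for 5.73% and below for 7.26%.

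**Figure D1:**
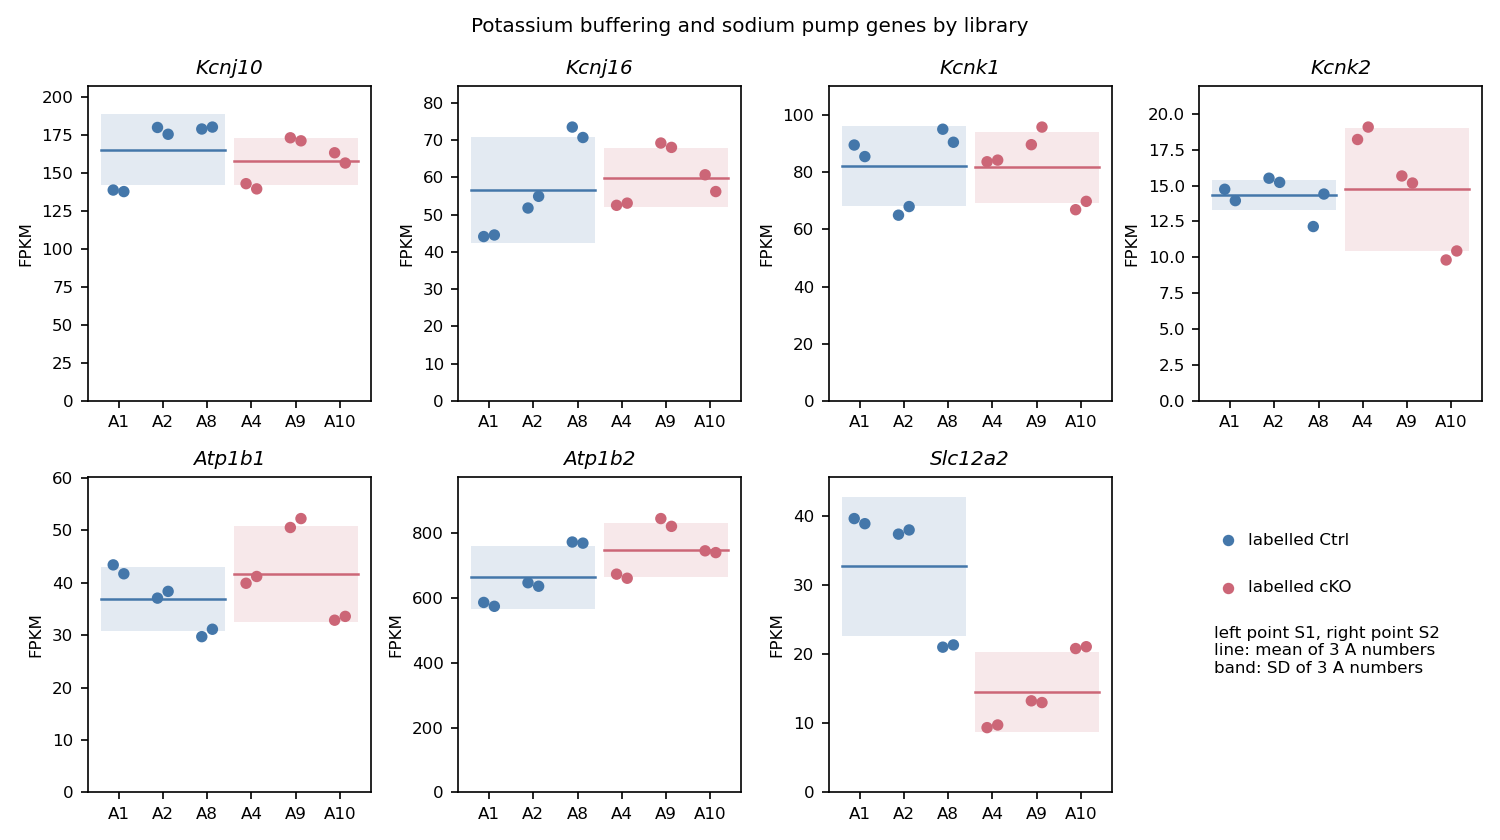
FPKM of the 7 members in each of the 12 libraries (y axes start at 0), by A number, with S1 to the left and S2 to the right; lines are the means and bands the SD of 3 A numbers labelled Ctrl (blue) or cKO (red). The S1 and S2 points of an A number lie close together, and the groups separate by A number for Slc12a2 and overlap for the other 6 genes.

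Kcnj10 (ENSMUSG00000044708), which encodes the main inward rectifier of astrocytes, was the most abundant potassium channel gene of the lists examined. It lies on chromosome 1 at 172168777 to 172201652 on the plus strand, as deposited. Its FPKM were 138, 177 and 179 in Ctrl A1, A2 and A8 and 141, 172 and 160 in cKO A4, A9 and A10. A low value occurred in each group, and the groups overlapped. The means were 165 ± 23.3 (SD, n = 3) in Ctrl and 158 ± 15.5 in cKO, a log2 fold change of -0.06 (SE 0.14, 95% interval -0.40 to 0.28, limma adjusted p = 0.969).

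Kcnj16 (ENSMUSG00000051497) encodes a subunit that joins Kcnj10 in mixed channels sensitive to pH. It lies on chromosome 11 at 110858859 to 110918794 on the plus strand. Its FPKM were 44.3, 53.3 and 72.1 in Ctrl and 52.8, 68.6 and 58.4 in cKO, in the same order of A numbers. Ctrl A1 was the lowest and Ctrl A8 the highest, so the whole cKO range lay within that of Ctrl. The means were 56.6 ± 14.2 and 59.9 ± 8.02 (SD, n = 3), and the log2 fold change was 0.10 (SE 0.20, 95% interval -0.36 to 0.57, limma adjusted p = 0.961). Kcnj16 stood at 0.341 ± 0.0537 of the Kcnj10 level in Ctrl and 0.380 ± 0.0173 in cKO, a difference within the spread (exact permutation p = 0.4, 0.667 adjusted over the 5 ratios examined).

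The start regions of this pair are shown because the products join in 1 channel. The sequences come from the RefSeq promoter table for GRCm38.p6, another source of positions than the deposited coordinates above. They cover the 250 bases before a start site, 5′ to 3′, with CpG dinucleotides in capitals. The first is chr1:172340960-172341209 on the plus strand and the second, the first listed of the Kcnj16 starts, chr11:110967783-110968032 on the plus strand.
Kcnj10: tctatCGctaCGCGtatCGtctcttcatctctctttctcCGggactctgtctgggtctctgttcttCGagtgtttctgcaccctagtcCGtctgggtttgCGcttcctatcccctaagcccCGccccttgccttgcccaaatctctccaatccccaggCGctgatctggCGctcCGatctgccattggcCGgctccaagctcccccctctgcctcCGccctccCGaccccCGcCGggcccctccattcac
Kcnj16: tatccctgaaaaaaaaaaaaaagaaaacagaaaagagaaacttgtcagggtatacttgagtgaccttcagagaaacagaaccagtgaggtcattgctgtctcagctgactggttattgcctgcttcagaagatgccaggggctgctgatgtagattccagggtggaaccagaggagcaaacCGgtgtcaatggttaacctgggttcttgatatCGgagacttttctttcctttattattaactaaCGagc
The windows in the table add 50 bases after the start, 300 in all, and the counts that follow are over those. The Kcnj10 window held 21 CpG and 63.7% G and C, and 75.2% of 32851 windows held fewer CpG. The Kcnj16 window held 3 CpG and 44.3% G and C, and 23.3% of windows held fewer CpG. The medians over all windows were 7 CpG and 52.7% G and C, so the partners lay on either side of both.

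Short motifs were searched on both strands. The Kcnj10 window held 2 matches of TTGGC (the half-site of nuclear factor I, in 46.7% of all windows), 3 of the GC box GGGCGG (35.7%) and 2 of CCAAT (37.4%), where a TTGGC can overlap a CCAAT. It held none of TATAAA (13.6%), and the Kcnj16 window shown held none of these 4. Among the other Kcnj16 windows, the one with 8 CpG held 1 TTGGC and the one with 5 CpG held 1 TATAAA. The one with 1 CpG held 2 TTGGC, 1 GC box and 1 CCAAT. The kappaB motif (GGGA, any base, then TTTCC), the binding motif of a factor that TNF receptors act through, was in 0.411% of all windows and in 0 of the 11 windows listed for 5 of the 7 members. Atp1b2 and Slc12a2 have no window in the table.

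Kcnk1 (ENSMUSG00000033998) and Kcnk2 (ENSMUSG00000037624) encode two-pore-domain channels, and the level of the former was several times that of the latter. Kcnk1 lies on chromosome 8 at 126721909 to 126757424 on the plus strand. Kcnk1 FPKM were 87.4, 66.4 and 92.7 in Ctrl and 83.9, 92.7 and 68.3 in cKO. A single low value in each group, A2 and A10, set the spread, and the groups covered nearly the same range. The means were 82.2 ± 13.9 and 81.6 ± 12.3 (SD, n = 3), and the log2 fold change was -0.01 (SE 0.17, 95% interval -0.42 to 0.40, limma adjusted p = 0.997). With the oligodendrocyte score as a covariate it was -0.50 (SE 0.28, limma adjusted p = 0.816). That score did not overlap between the groups, so a model with it cannot tell the score and the genotype apart, here and below. Exons of Kcnk1 overlap those of the long noncoding gene Gm45875 on the opposite strand, which was listed at 16.1 to 24.5 FPKM. Whether counting used strand is not given in the sources used here, so reads of the 2 genes may be shared.

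Kcnk2 encodes a channel opened by stretch and by lipids, and lies on chromosome 1 at 188940127 to 189134470 on the minus strand, with exons overlapping those of the noncoding gene A430027H14Rik on the other strand (1.19 to 3.39 FPKM). Its FPKM were 14.3, 15.4 and 13.3 in Ctrl and 18.6, 15.4 and 10.1 in cKO. The 3 Ctrl values were close together, and the cKO values held both the highest (A4) and the lowest (A10) of the 6. The means were 14.3 ± 1.05 and 14.7 ± 4.30 (SD, n = 3), a log2 fold change of 0.00 (SE 0.22, 95% interval -0.52 to 0.52, limma adjusted p = 0.999); the covariate gave -0.49. The Kcnk2 to Kcnk1 ratio was 0.180 ± 0.0460 in Ctrl and 0.179 ± 0.0385 in cKO (exact permutation p = 1).

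Atp1b2 was the most abundant of the 7 members in every A number, and Atp1b1 stood far below it. Atp1b2 (ENSMUSG00000041329) encodes the beta subunit that carries the ACSA-2 epitope, so the cells were selected by the protein of this gene. It lies on chromosome 11 at 69490562 to 69496768 on the minus strand. Its FPKM were 581, 642 and 771 in Ctrl and 668, 834 and 743 in cKO. The highest value was in cKO A9 and the 2 lowest in Ctrl A1 and A2, while Ctrl A8 exceeded 2 of the 3 cKO values. The means were 665 ± 97.4 and 748 ± 83.1 (SD, n = 3), a log2 fold change of 0.17 (SE 0.15, 95% interval -0.19 to 0.53, limma adjusted p = 0.877). These are bulk samples, so fewer cells of a type and less RNA per cell cannot be told apart, for this gene and for those below.

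Atp1b1 (ENSMUSG00000026576) encodes the beta subunit that is widespread in other tissues and in neurons. It lies on chromosome 1 at 164264678 to 164285924 on the minus strand, where its exons overlap those of Nme7 on the opposite strand (4.83 to 8.52 FPKM). Its FPKM were 42.5, 37.7 and 30.4 in Ctrl and 40.5, 51.4 and 33.2 in cKO. The groups overlapped, with Ctrl A8 lowest and cKO A9 highest. The means were 36.9 ± 6.11 and 41.7 ± 9.14 (SD, n = 3), and the log2 fold change was 0.16 (SE 0.20, 95% interval -0.30 to 0.63, limma adjusted p = 0.918). The Atp1b1 to Atp1b2 ratio was 0.0571 ± 0.0170 in Ctrl and 0.0557 ± 0.00953 in cKO (exact permutation p = 1).

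Atp1b2 made up most of the beta subunit messenger RNA of the A numbers. Its share of the summed FPKM of Atp1b1, Atp1b2 and Atp1b3 was 85.1%, 86.7% and 91.6% in Ctrl and 90.9%, 90.8% and 91.2% in cKO. Ctrl A8 lay with the cKO values, above Ctrl A1 and A2. The means were 87.8 ± 3.39% and 91.0 ± 0.223% (SD, n = 3, exact permutation p = 0.4). The share of Atp1b1 was 4.98% and 5.06%. That of Atp1b3 was 7.25 ± 2.12% and 3.97 ± 0.635%, with every cKO value below every Ctrl value (exact permutation p = 0.1, the smallest possible).

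Slc12a2 (ENSMUSG00000024597), the NKCC1 gene, lies on chromosome 18 at 58011750 to 58079893 on the plus strand. Its FPKM were 39.3, 37.7 and 21.2 in Ctrl A1, A2 and A8 and 9.57, 13.1 and 20.95 in cKO A4, A9 and A10. Ctrl A8 and cKO A10 nearly met, and at the level of single libraries they overlapped, with cKO A10 S2 at 21.09 and Ctrl A8 S1 at 21.02. The means were 32.7 ± 10.01 in Ctrl and 14.6 ± 5.82 in cKO (SD, n = 3), a log2 fold change of -1.13 (SE 0.33, 95% interval -1.92 to -0.35). Its unadjusted p was 0.0114 and its adjusted p 0.451 by limma, and the exact permutation p was 0.1. Of all tested genes, 7.26% had every cKO value below every Ctrl value, as this 1 of the 7 members did, and 2.30% had a lower log2 fold change.

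Oligodendrocytes also express Slc12a2, and their markers moved with it. The summed oligodendrocyte marker FPKM were 1928, 2098 and 982 in Ctrl A1, A2 and A8 and 283, 403 and 674 in cKO A4, A9 and A10. The 6 A numbers took the same rank in both measures except that A1 and A2 changed places. This order was not particular to oligodendrocyte markers. Summed precursor markers (116, 135 and 94.2 FPKM in Ctrl, 53.8, 67.1 and 77.2 in cKO) ranked the A numbers as the oligodendrocyte markers did. So did summed neuronal markers, which were low (10.1, 10.8 and 8.23 FPKM in Ctrl, 3.99, 4.89 and 8.10 in cKO). With the oligodendrocyte marker score as a covariate in the model, Slc12a2 gave 0.27 on the log2 scale, of the opposite sign (SE 0.23, limma adjusted p = 0.851). The score ran from 5.53 to 6.60 in Ctrl and from 3.92 to 5.20 in cKO. With no overlap, its part and that of the genotype cannot be told apart in this model. With no covariate and without cKO A4, the library pair with Tnfrsf1b reads, the Slc12a2 log2 fold change was -0.89 (limma adjusted p = 0.946). Without cKO A10, which had the highest sum of choroid plexus markers, it was -1.41 (limma adjusted p = 0.360). The part of each cell type in the Slc12a2 difference was not tested beyond these values.

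**Figure D2:**
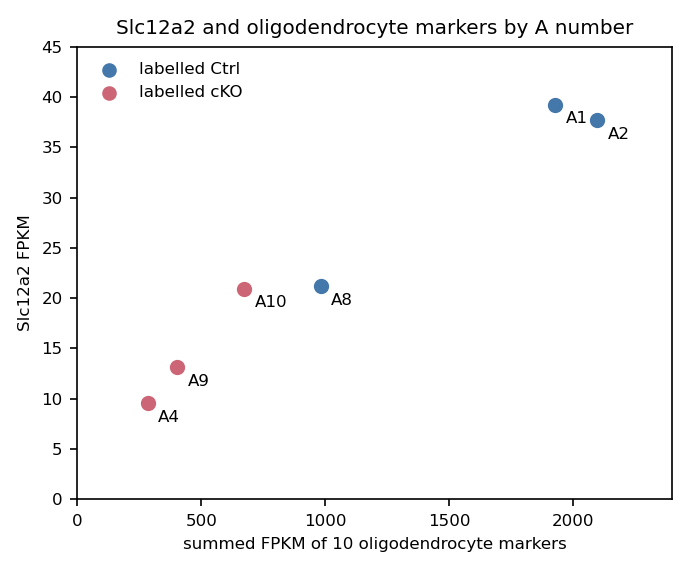
Slc12a2 FPKM (y axis) against the summed FPKM of 10 oligodendrocyte markers (x axis), 1 point for each A number labelled Ctrl (blue) or cKO (red). A1 and A2 lie at the upper right (39.3 and 37.7 FPKM), A4 at the lower left (9.57 FPKM), and A8 and A10 share nearly the same Slc12a2 level in between.

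Levels per kilobase followed 1 order in most A numbers. Atp1b2 was above Kcnj10 and Kcnj10 above Kcnk1 with no overlap of their ranges over the 6 A numbers, by ratios of 3.62 to 4.85 and of 1.58 to 2.67. Next came Kcnk1, Kcnj16, Atp1b1 and Slc12a2, where each exceeded its follower in 6 of 6 A numbers but the ranges of neighbours overlapped. Atp1b1 and Slc12a2 were level in Ctrl A2 (37.69 and 37.68 FPKM), and in its S1 library Slc12a2 was the higher (37.4 against 37.05). Slc12a2 exceeded Kcnk2 in 4 of 6 A numbers, namely the 3 of Ctrl, where their ranges did not overlap, and cKO A10. Kcnk2 was the higher in cKO A4 (18.6 against 9.57 FPKM) and cKO A9 (15.4 against 13.1). Within cKO those neighbours cannot be separated from their spread. The S1 and S2 libraries of an A number differed by less than 10% in 41 of 42 pairs of member values and by 18.6% at most. The SD of log2(FPKM + 1) over the 6 A numbers was 0.17 for Kcnj10, 0.19 for Atp1b2, 0.21 for Kcnk1, 0.26 for Kcnj16, 0.26 for Atp1b1, 0.27 for Kcnk2 and 0.77 for Slc12a2. The median was 0.33 over all tested genes and 0.22 over the 3965 with a mean of at least 10 FPKM.

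Set against the 12 astrocyte markers within each A number, Kcnj10 differed more than in FPKM. Its log2(FPKM + 1) minus the astrocyte marker score was -0.55, -0.38 and -0.39 in Ctrl and -0.79, -0.60 and -0.64 in cKO. All cKO values were below all Ctrl values, as for 15.6% of tested genes on this scale, and the difference was -0.24 (exact permutation p = 0.1, 0.35 adjusted over the 7 members). The marker score itself was higher in cKO, and Gfap, one of its genes, ranged from 61.4 to 112 FPKM in Ctrl and 94.6 to 156 in cKO; with Gfap left out of the score the Kcnj10 difference was -0.20 (exact permutation p = 0.1). Slc12a2 gave -1.31 on this scale (exact permutation p = 0.1). The other 5 members overlapped between the groups (exact permutation p from 0.4 to 1).

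No partner gene of the members named here passed the test either. Atp1b3, the third beta subunit gene, was lower in all cKO A numbers, at 59.3, 61.1 and 40.6 FPKM in Ctrl and 26.5, 33.0 and 38.3 in cKO. Its log2 fold change was -0.69 (SE 0.21, unadjusted p = 0.0121, limma adjusted p = 0.456), and with the oligodendrocyte score as a covariate it was 0.09. Fxyd1, which encodes a small membrane protein that tunes the pump, was higher in all cKO A numbers: 12.5, 10.8 and 12.8 FPKM in Ctrl against 18.3, 16.9 and 16.0 in cKO. Its log2 fold change was 0.47 (SE 0.13, unadjusted p = 0.00858, limma adjusted p = 0.427), and 0.23 with the oligodendrocyte score as a covariate. Fxyd7, of the same family and separated from Fxyd1 by 210 bases, was low, at 0.666, 0.828 and 0 FPKM in Ctrl and 2.06, 4.76 and 1.58 in cKO. Its log2 fold change was 1.30 (unadjusted p = 0.0209, limma adjusted p = 0.539), and 2.65 with a pseudocount of 0.1 in place of 1.

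Slc24a2, a potassium-dependent sodium calcium exchanger, gave 16.6, 17.04 and 9.11 FPKM in Ctrl and 2.26, 2.59 and 6.16 in cKO. Its log2 fold change was -1.75 (SE 0.37, unadjusted p = 0.00208, limma adjusted p = 0.333). Its order of A numbers resembled that of Slc12a2, with A8 lowest of Ctrl and A10 highest of cKO, and it moved with the oligodendrocyte markers; with their score as a covariate its log2 fold change was -0.24. The bicarbonate cotransporter gene Slc4a4 averaged 174 FPKM in Ctrl and 209 in cKO (log2 fold change 0.29, limma adjusted p = 0.784). Slc12a4, which carries potassium and chloride out of the cell, averaged 19.7 and 23.2 FPKM (log2 fold change 0.23, limma adjusted p = 0.772). The Slc12a2 to Slc12a4 ratio was 2.14, 1.97 and 0.985 in Ctrl and 0.448, 0.587 and 0.808 in cKO, with no overlap (exact permutation p = 0.1, 0.5 adjusted over the 5 ratios).

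**Figure D3:**
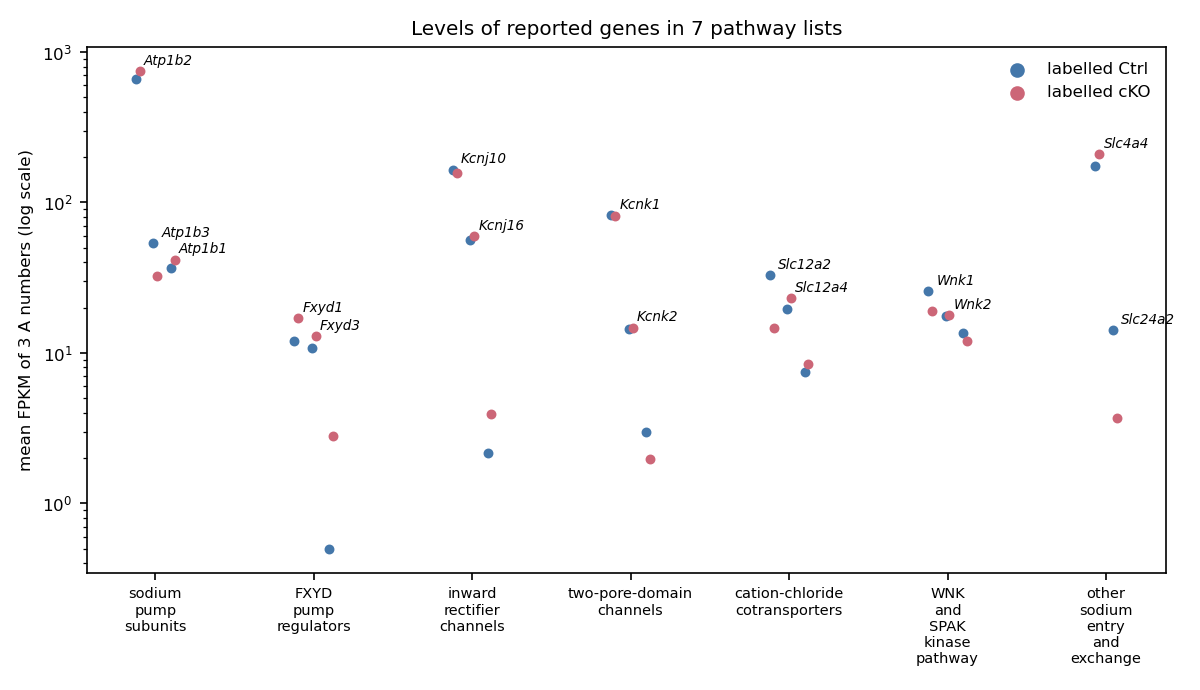
Mean FPKM of 3 A numbers (log scale) for the genes of 7 pathway lists named in the text, labelled Ctrl in blue and cKO in red. Atp1b2 (665 and 748) lies highest, followed by Slc4a4 (174 and 209) and Kcnj10 (165 and 158).

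Over the 7 lists, 63 genes besides the members were examined and 33 of them tested; the rest were below a mean of 1 FPKM. None of the 33 had a limma adjusted p under 0.05. At an unadjusted p under 0.05 by limma, 2 were higher in cKO (Fxyd1, Fxyd7) and 2 lower (Atp1b3, Slc24a2), or 12.1% against 7.69% of all tested genes. Their median log2 fold change was 0.03, beside -0.01 over all tested genes. By list, members included, 7 of 8 sodium pump subunit genes were tested, 3 of 7 FXYD genes, 7 of 15 inward rectifiers, 4 of 14 two-pore-domain channels, 5 of 9 cation-chloride cotransporters, 7 of 8 genes of the WNK and SPAK kinase pathway, which regulates NKCC1, and 7 of 9 other sodium transporters. Within the kinase list Wnk1 averaged 25.9 FPKM in Ctrl and 19.0 in cKO (limma adjusted p = 0.674) and Wnk2 17.6 and 17.8 (limma adjusted p = 0.991). Cab39, Fxyd3, Kcnj13, Kcnk13 and Slc12a9, among the 3 most abundant of their lists, overlapped between the groups (limma adjusted p from 0.777 to 0.921).

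**Figure D4:**
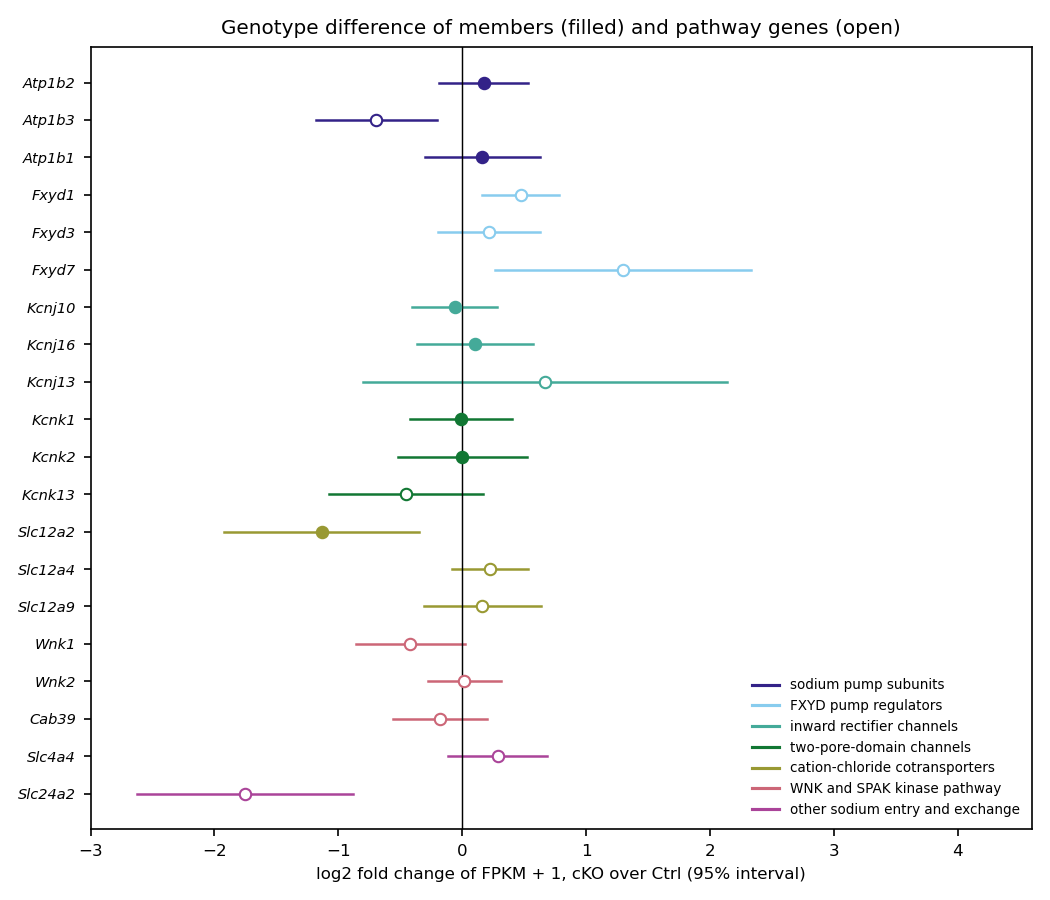
Log2 fold change of FPKM + 1, cKO over Ctrl, with 95% intervals (n = 3 A numbers a group), for the genes of 7 pathway lists named in the text, coloured by list; members are filled and other genes open. Of the 7 members, 6 lie near 0, while Slc12a2 lies at -1.13. Slc24a2, which is not a member, lies at -1.75.

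The genes with the closest pattern to each member were sought among the 3965 genes with a mean of at least 10 FPKM, by Pearson r of log2(FPKM + 1) over the 6 A numbers, as a description. The closest were Adcyap1r1 (0.995) and Ntrk2 (0.992) for Atp1b2, Edil3 (0.9998) and Map1a (0.999) for Slc12a2, Gnao1 (0.970) and Supt6 (0.960) for Kcnk1, and Rer1 (0.971) and Chst2 (0.961) for Atp1b1. For Kcnj10 they were Mir8114 (0.979) and Ltn1 (0.970), for Kcnj16 mt-Tq (0.989) and Rbm15 (0.987), and for Kcnk2 Gm50251 (0.977) and Btg1 (0.941). Mir8114 and mt-Tq are small RNA genes and their values are uncertain. Among the members, Kcnj16 and Atp1b2 gave the highest r (0.942), and Kcnj10 and Kcnj16 gave 0.765. All 6 points share the 2 genotypes and the marker differences above.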

How the data were processed

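The authors deposited FPKM values with exon lengths for 56941 genes in 12 libraries. Per the submitters' processing notes, FastQC, STAR, featureCounts and DESeq2 were used with mm10 and GRCm38; versions and strand use are not given in the sources used here. Coordinates are as deposited: start and end equalled those in GENCODE M21 (GRCm38) for 2.70% of 51948 matched genes. All 7 members had the same span length as there but 0 the same position, so their coordinates are not those of GRCm38 and their build is not given in the sources used here. Repeated symbols (147) were summed.

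To recover reads, the commonest value above 0 of FPKM times gene length in each library was taken as 2 reads. With that choice, 85.7% to 89.5% of values under 200 reads came out whole within 0.01. Member reads ran from 850 to 99039 per library. Most low values were even (72.6% to 80.4%). As the commonest value was set to 2 reads beforehand, this cannot decide whether a pair counts as 2 reads. Reads carry no molecular identifiers, so depth bears on counting error only.

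S1 and S2 were averaged as log2(FPKM + 1) per A number. Limma 3.58.1 in R 4.3.3 (lmFit, eBayes with trend, two-sided, Benjamini-Hochberg) was fitted over the 17540 genes with a mean of at least 1 FPKM. A fold change on this scale understates that of low genes. Single values used two-sided exact permutation over 20 arrangements. On simulated data of cKO against Ctrl over 17540 genes, limma recovered 41 of 200 genes changed by 1 and 123 of 200 changed by 2 on the log2 scale, with 8 false calls. Promoter windows came from RefSeq; 5 of 7 members matched. Python 3.11.15 was used for tables and figures.

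Members and lists were chosen with earlier results of these data known. Besides the members and Tnfrsf1b, the text names the 3 most abundant genes of each pathway list and those with an unadjusted p under 0.05, fixed partners, the 2 genes closest in pattern to each member, and up to 2 top genes of a marker list; Cx3cr1, Tmem119, C1qa and Gfap were added for their levels. Some genes this rule names are not reported here; counts over lists include them. Alternatives covered pseudocount, filters, scalings, eBayes settings, left-out A numbers, S1 or S2 alone, models of 12 libraries, an oligodendrocyte covariate and voom on recovered reads.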

Additional observations from a re-analysis of the deposited data

How the results depend on the processing

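No member passed the adjusted threshold in any of 20 alternative settings each. The count of genes passing was 0, and 0 to 1 with each A number left out; with the 12 libraries and the A number as a random effect it was 112. Adding the replicate number (S1 or S2) as a block to that model gave 80; the number pairs the libraries of 1 A number and no Ctrl with a cKO A number. Slc12a2 then had limma adjusted p = 0.0662, and 0.0917 with the replicate block (0.0662 to 0.966 over all settings), and Slc24a2 passed at 0.0214 and 0.0354, with log2 fold change -1.75 in both. Both models apply 1 correlation between S1 and S2 libraries to all genes (0.915, and 0.924 with the block). For Slc12a2 the SD of log2(FPKM + 1) was 0.021 within A numbers, against 0.48 in Ctrl and 0.53 in cKO between them. Its SE was still 0.25 without the block, against 0.33 with S1 and S2 averaged. These p-values, and the counts of 112 and 80, therefore rest on more apparent replication than the A numbers give. Log2 fold changes near 0 turned sign: Kcnj10 to 0.0185 and Kcnk1 to 0.0718 with upper quartile scaling, Kcnk1 to 0.0208 with median-of-ratios scaling and 0.0327 in S2, Kcnk2 to -0.000568 with pseudocount 0.1 and -0.00274 in S2. With the oligodendrocyte score as a covariate they were 0.27 for Slc12a2, -0.26 for Kcnj16, -0.49 for Kcnk2, -0.50 for Kcnk1, -0.00436 for Atp1b2, 0.0945 for Atp1b3 and -0.15 for Slc4a4. The score and the genotype cannot be told apart in that model. Relative to the astrocyte score, Atp1b2 was 0.00161 in S1; without Gfap in the score, a setting chosen after seeing the data, Atp1b1 was 0.0224 and Atp1b2 0.0330. The log2 ratio of Atp1b1 to Atp1b2 was 0.00761 and that of Kcnk2 to Kcnk1 -0.0389 in S2. With each A number left out, the log2 fold change ran from -0.18 to 0.0164 for Kcnj10, -0.0564 to 0.29 for Kcnj16, -0.15 to 0.11 for Kcnk1, -0.18 to 0.23 for Kcnk2, 0.00579 to 0.31 for Atp1b1, 0.0821 to 0.29 for Atp1b2 and -1.41 to -0.89 for Slc12a2. Levels relative to the score then ran from -0.18 to 0.16 for Atp1b1, -0.0588 to 0.0669 for Atp1b2, -0.17 to 0.0684 for Kcnj16 and -0.38 to 0.0484 for Kcnk2. The ratios ran from -0.25 to 0.20 (Atp1b1 to Atp1b2) and -0.16 to 0.20 (Kcnk2 to Kcnk1), and marker scores from -1.12 to 0.35 (choroid plexus) and -0.0478 to 0.28 (mural). The cause of these shifts was not tested.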
